A study of Mus musculus with 15 samples.

Results

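The 227 exon-exon junction rows described here rose with LPS in wild type (WT) B cells while the value of their gene did not move. They were chosen from the measured values. A row was kept where its mean over the 4 WT arrays with LPS lay at least 2 log2 units above its mean over the 4 WT arrays without LPS and was itself at least 8. Its gene had to have a WT change between -0.5 and 0.5 and a mean over all 15 arrays of at least 8, taking as the gene value the median over its exon region rows. The 227 rows lie in 168 genes, out of 241345 junction rows with 1 gene symbol and 725678 rows on the array in all. The gene filter was passed by 2717 of 31366 genes, 1992 of which have a junction row, and these genes hold 30274 junction rows.

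A junction probe spans the seam that splicing makes between an upstream and a downstream exon, so its signal reports one way of joining the transcript, whereas an exon region probe reports every transcript that holds that stretch. Many genes join their exons in more than one way, and lymphocytes are known to switch isoforms when they are activated. LPS, a bacterial cell wall lipid, drives resting B cells through Toll-like receptor 4 into growth, division and antibody secretion. ELL2 is an elongation factor of RNA polymerase II that is known in antibody-secreting cells for favouring the secreted form of the heavy chain mRNA.

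RNA came from primary splenic B cells of C57BL/6 mice, isolated on MACS columns, with 1 array per sample. The groups were WT cells without agent (4 arrays), WT cells with LPS (4 arrays), ELL2 -/- cko cells without agent (4 arrays) and ELL2 -/- cko cells with LPS (3 arrays). Cells without agent were taken directly after isolation and those with LPS after 72 h in culture, so LPS and culture cannot be told apart. The promoter that drives the deletion, the age and the sex of the mice are not given in the sources used here. Cells came from individual mice, but the labels do not say whether samples with and without LPS share a mouse, and p-values measure the spread between these samples.

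The Ell2 gene value ranged in WT from 10.87 to 11.10 without LPS and from 15.73 to 16.86 with LPS. In ELL2 cko it lay between 9.78 and 11.17 without LPS and between 14.14 and 14.16 with LPS. The genotypes overlapped without LPS, and with LPS every ELL2 cko array lay below every WT array. B cell markers averaged 12.81 or more in every array. The mean over the 15 measured T cell markers was between 4.83 and 5.07 in all WT arrays, but 11.002 and 10.57 in ELL2 cko replicates 1 and 2 without LPS and 6.63 and 6.90 in ELL2 cko replicates 2 and 3 with LPS. Replicates 1 and 2 without LPS also stood out in neutrophil markers (10.50 and 10.06, against 4.24 to 4.96 in all other arrays), monocyte and macrophage markers (9.23 and 9.26, against 5.46 to 7.08) and NK cell markers (8.33 and 8.14, against 4.38 to 4.98). Replicates 2 and 3 with LPS had the highest monocyte and macrophage markers of the rest (7.05 and 7.08). These are called the 4 arrays with markers of other cells. Called junction changes in ELL2 cko are given with and without them, singly or as a range. Calls of gene values and of the splicing index are not given without them. Leaving them out keeps only ELL2 cko replicate 1 with LPS and replicates 3 and 4 without LPS. That comparison rests on 1 array with LPS, so only the size of each change is read from it. The part of other cells in the results was not tested.

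Because the choice used the WT arrays, the WT values are a description. The WT change of the 227 junctions ran from 2.00 to 7.18 with a median of 2.43, and 39 rose by at least 3 and 10 by at least 4. The values do not tell which of them were above background beforehand. Their mean in WT cells without LPS had a median of 8.51, and 99 lay under 8. Of the members 26 were under 6, which is about the median of all junction rows in that group (6.04), and 65 were at 10 or higher. With LPS the median was 11.08. All 4 WT arrays with LPS lay above all 4 without it for 217 of the 227, against 12.2% of all exon region and junction rows and 13.5% of the other junction rows of the filtered genes, a count that the choice itself fixes.

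The threshold cut through a continuous spread of changes. Just inside it stood junctions of Eif1ax, a translation initiation factor (2.0013), Coro2a (2.0052) and Dap3 (2.0053). Just outside stood junctions of Rbm25 (1.9997), Ktn1 (1.9983) and Slc2a1 (1.994). In ELL2 cko the changes of the first set were 0.70, 0.45 and 0.40, and those of the second were 0.71, 1.06 and 0.61.

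In WT the rule fixed that the members rose by at least 2 and that gene values stayed within 0.5, so the WT medians below are a description. The median over the 227 junctions in WT was 7.94, 8.41, 8.59 and 8.72 without LPS, rising to 11.51, 10.58, 11.40 and 10.97 with LPS. It was 8.57, 8.83, 8.88 and 9.01 in ELL2 cko without LPS and 9.84, 9.91 and 10.12 with LPS. The ELL2 cko arrays with LPS thus lay above all arrays without LPS and below all WT arrays with LPS. The median gene value of the 168 genes stayed between 9.40 and 9.81 in all 15 arrays.

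**Figure D1:**
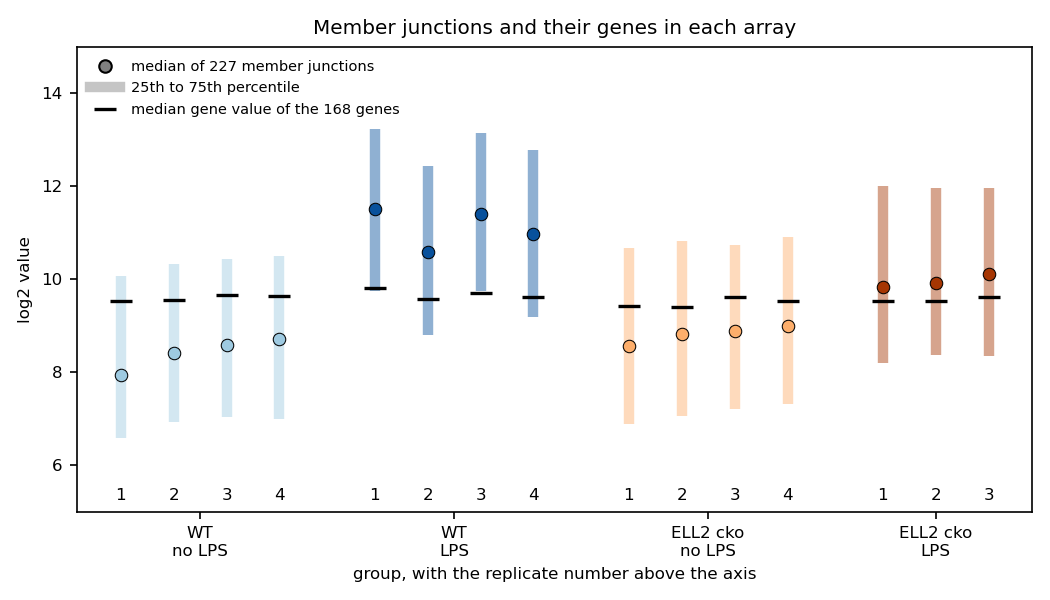
Each point is the median log2 value of the 227 member junctions in 1 array, the thick bar spans the 25th to 75th percentile, and the dash is the median gene value of the 168 genes; replicate numbers stand above the axis. The members' medians are 7.94 to 8.72 in WT without LPS, 10.58 to 11.51 in WT with LPS, 8.57 to 9.01 in ELL2 cko without LPS and 9.84 to 10.12 in ELL2 cko with LPS, while the dashes stay between 9.40 and 9.81.

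WT replicate 2 with LPS was the lowest of its group, and it weighed on who was chosen. With this array left out, 324 junctions met the rule, 194 of them among the 227. In turn, each WT array with LPS was left out, junctions were chosen on the others, and the left-out array was read. Its median excess over the WT mean without LPS was 2.71, 1.62, 2.76 and 2.20 for replicates 1 to 4, against 2.42, 2.37, 2.38 and 2.38 in the arrays that chose. Between 96.5% and 99.2% of the junctions were higher in the left-out array, although the arrays without LPS still took part in the choice.

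The member genes differed in how far their other rows moved with LPS. Of the 168 genes, 135 had 1 member, 22 had 2 and 11 had at least 3. A member gene held a median of 14 junction rows and 21.5 exon regions, and members made up a median of 7.9% of a gene's junction rows. In 6 genes (Myo5a, Cul1, Shisa5, Nup205, Brd2 and Dicer1, listed because they were found so) another junction that had a mean of at least 8 in WT without LPS fell by at least 2, and with no such level set 9 member genes held a junction that fell by that much. Among all 1992 filtered genes with a junction row, 86 held a junction that fell by at least 2 from that level, the 6 included. In 96 of the 168 genes some exon region fell by at least 1, in 112 some exon region rose by at least 1, and 59 had both. These exon region counts were not taken for filtered genes without a member, so nothing particular to member genes is read from them.

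In some of these genes other rows go against calling the gene unchanged. The exon regions of each gene were split at the median of their mean over 15 arrays. In the 11 genes with at least 3 members the brighter regions rose by a median of 1.57 in WT, from 0.72 to 2.69, while the dimmer regions changed by a median of 0.07. Their gene value, which sits between the brighter and dimmer regions, stayed within 0.5. Over all 168 genes the brighter regions rose by more than 0.5 in 64 (38.1%), against 9.22% of the 2549 genes that passed the filter without a member. With the chosen junctions set aside, the median over the other junctions of the gene exceeded 0.5 in 66 member genes, or 40% of those with another junction. The median over all junctions exceeded 0.5 in 20.7% of the 1824 filtered genes that have a junction row and no member. These shares come from the WT arrays that chose the members and are a description. Genes without a member hold, by the rule, no junction that rose by 2 to at least 8. The means behind the split include the arrays with LPS, so a region that rose is more likely to count as brighter.

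Psmd14, the deubiquitinating subunit of the proteasome lid, had the most members, 7 of its 16 junctions, with WT changes from 2.39 to 3.61. Its brighter exon regions rose by a median of 2.69 and its dimmer ones by 0.56, while its gene value changed by -0.26. Tcp1, a subunit of the CCT chaperonin that folds actin and tubulin, had 6 of 13 junctions among the members, and its brighter and dimmer regions changed by 1.57 and -0.36. Its gene value changed by -0.03, so the level of the gene as a whole did not show what most of its bright rows did. Gorasp2, a stacking protein of the Golgi, had 6 of 15 (brighter regions 1.64), and Sdf4, a calcium-binding protein of the Golgi lumen, had 5 of 9 (1.85). Cytip, which binds cytohesin and tunes leukocyte adhesion, had 5 of 12 (1.32), and Arf4, a small GTPase of Golgi traffic, had 4 of 10 (1.83). Tsta3, now named Gfus, the enzyme that makes GDP-fucose, and Mlf2 had 3 of 11 each, with brighter regions at 1.19 and 1.68.

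In other genes 1 junction stood alone. In 65 genes with 1 member and at least 5 other junctions, the median of those other junctions and the median of the brighter exon regions both lay within 0.5. These 65 junctions had a median WT change of 2.41, and the other 162 members had 2.44. Gtpbp2, a GTP-binding protein of the translation machinery's quality control, had a junction that rose by 5.16 while its 20 others changed by a median of 0.47. Tial1, an RNA-binding protein that regulates splicing and translation, had 1 of 21 junctions rise by 4.41, with the others at a median of 0.39. Rnf157, a ubiquitin ligase, had 1 of 28 (4.00, others 0.05), and Tlk2, a kinase that acts on a histone chaperone, had 1 of 30 (3.24, others 0.20). The E protein transcription factor Tcf12 (1 of 37, 5.09, others 0.58) and the chromatin gene Setd5 (1 of 36, 4.95, others 0.64) had other junctions a little above 0.5. In Setd5 the brighter exon regions stayed within 0.5 (0.48). In Tcf12 they rose by a median of 0.66, and 8 exon regions rose by at least 1, the highest by 3.72.

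**Figure D2:**
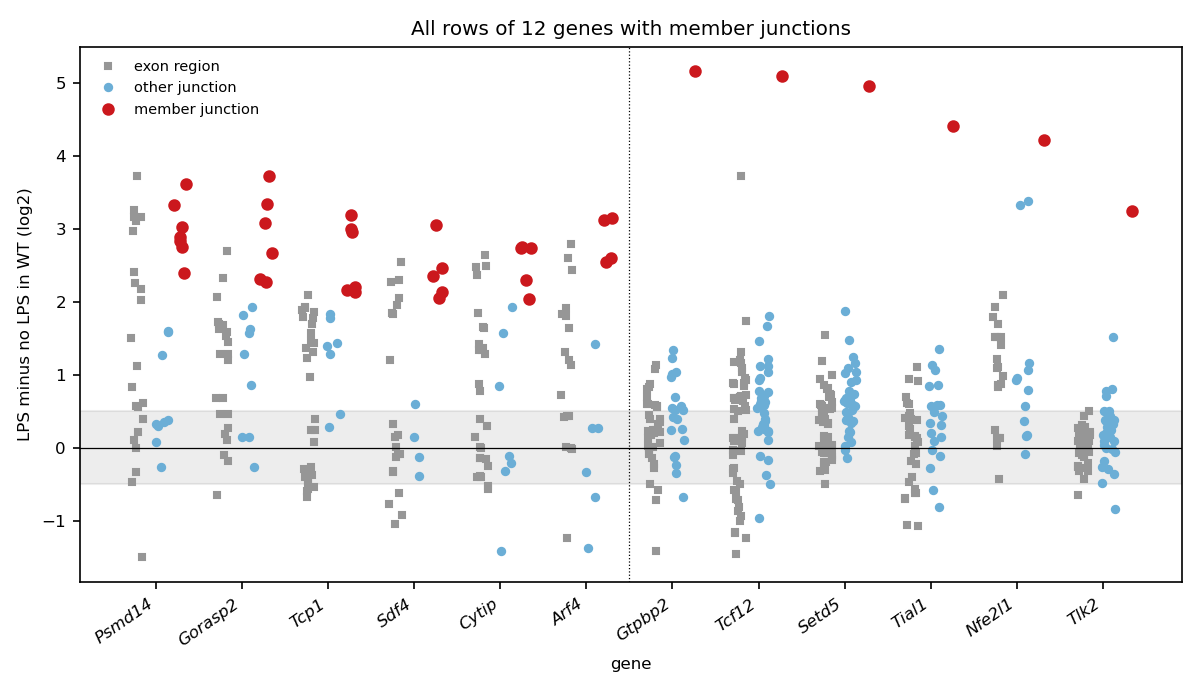
The vertical axis gives the WT change (LPS minus no LPS, log2) of every exon region (grey squares), other junction (blue) and member junction (red) of 12 genes; points are spread sideways only for visibility and the shaded band spans -0.5 to 0.5. Left of the dotted line, in Psmd14 to Arf4, exon regions also rose, the highest of each gene by 2.10 (Tcp1) to 3.72 (Psmd14). The largest member lies above every exon region in Gorasp2, Tcp1, Sdf4, Cytip and Arf4. Right of the line, in Gtpbp2 to Tlk2, 1 member lies far above nearly all other rows, with changes from 3.24 to 5.16.

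Some members cannot be assigned to 1 gene with certainty. In 6 members the values were identical in all arrays to those of a junction row under another symbol, among them Ppp1cc, Sp110 and a row of the variable segment Ighv14-2 (identical to rows of Ighv14-1 and Ighv14-3). The Ppp1cc row was identical to a member row of a predicted gene, so the same values enter the 227 rows 2 times, under 2 of the 168 genes. Ighv14-2 had the largest WT changes, 7.18 and 5.74 in its 2 junctions. It has only 3 exon regions, 2 of which rose by at least 1 while the third fell by at least 1, so its gene value of -0.21 describes little of the gene.

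In ELL2 cko, whose arrays took no part in choosing the rise, most members rose by less. The change had a median of 1.06, from -0.90 to 3.98, and was above 0 in 212 of the 227 (93.4%). Of the 18950 other junction rows of the same filtered genes at the same WT level, 63.1% were above 0, with a median of 0.20. The change reached 1 in 121 members and 2 in 29. It was under 50% of the WT change in 140 and at or above it in 7. The median of the share of the WT change was 42.0%. Since the WT changes were picked for being large, these shares are a description and no test of a difference between genotypes.

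Every ELL2 cko array with LPS lay above every array without it for 95 members (41.9%), against 9.91% of the 18950 comparison rows and 7.93% of all rows, and for 0 members every array lay below (3.79% and 7.04%). By limma over all 719071 exon region and junction rows, 23 members in 16 genes were called higher in ELL2 cko at an adjusted p under 0.05 (10.1%), against 1.27% of all rows and 0.734% of the comparison rows. No member was called lower (0.878% of all rows and 0.306% of the comparison rows). At an unadjusted p under 0.05, 54.6% of the members were higher, against 12.2% of the comparison rows and 8.12% of all rows. The 23 called rises ran from 1.34 to 3.98, and in all 23 the arrays with and without LPS did not overlap. With the 4 arrays with markers of other cells left out, which leaves 1 ELL2 cko array with LPS, the median change was 0.90 and 197 members were above 0. All 23 kept a change above 0 there, from 1.14 to 5.64. Only 4 of the 23, in Nfe2l1, Tlk2 and Psmd14, were called whichever single ELL2 cko array was left out.

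**Figure D3:**
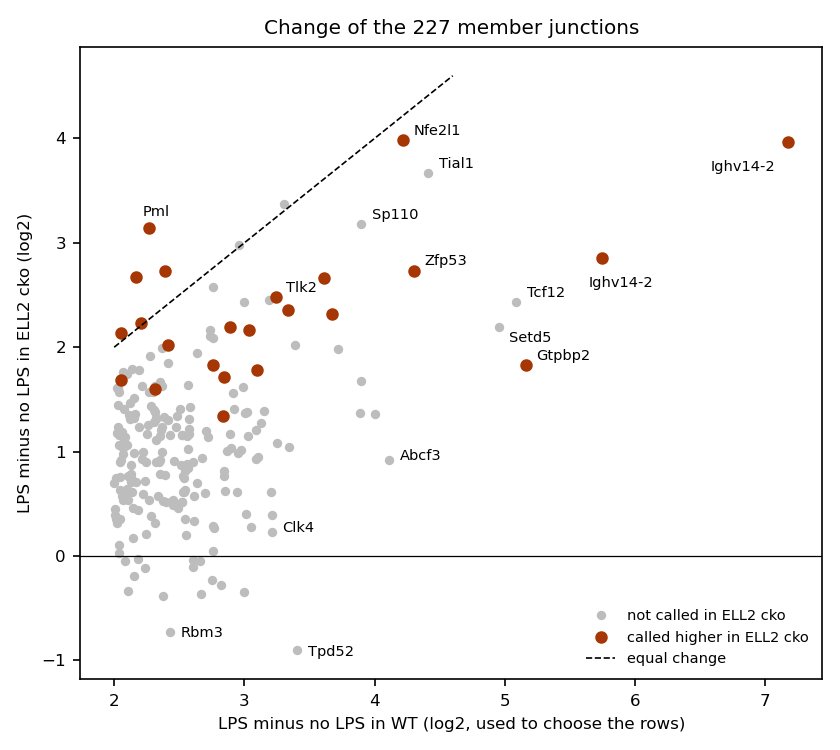
Each point is 1 member junction, with its WT change (LPS minus no LPS, log2) on the horizontal axis, which begins at the threshold of 2, and its ELL2 cko change on the vertical axis. Red points mark the 23 junctions called higher in ELL2 cko, the dashed line marks equal changes, and 7 points lie on or above it, among them Pml (2.27 in WT, 3.14 in ELL2 cko).

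Nfe2l1, the transcription factor that drives proteasome subunit genes, had a member called in every fit that left out 1 array. Its junction measured 3.87, 3.22, 4.54 and 3.77 in WT without LPS and 6.60, 8.83, 8.88 and 7.97 with LPS. The ELL2 cko arrays read 4.06, 3.19, 3.26 and 2.65 without LPS and 7.51, 7.43 and 6.87 with LPS. The junction went from a low level to a moderate one in both genotypes, with no overlap. The ELL2 cko change was 3.98 ± 0.35 (SE, n = 4 and 3, limma adjusted p = 0.0036), and 4.56 without the 4 arrays. Without LPS the junction lay well below the median of all junction rows, 6.09 in that group, and the table does not tell whether it was above background there, so the size of the rise is uncertain. Of the 23 called junctions, 3 (Nfe2l1, Tlk2 and Mif4gd) had an ELL2 cko mean under 6 without LPS. The gene value meanwhile lay between 9.42 and 10.25 in ELL2 cko without LPS and between 10.40 and 10.58 with LPS, and 11 of the 21 exon regions rose by at least 1 in WT.

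Of the 7 Psmd14 members 6 were called higher in ELL2 cko, with changes from 1.71 to 2.73, and the other changed by 1.84. The junction with the largest WT change (JUC0200003766.mm.1) measured 10.74, 10.72, 11.0024 and 11.57 in WT without LPS and 14.57, 14.60, 14.84 and 14.49 with LPS. Values in ELL2 cko were 11.89, 11.52, 11.77 and 11.16 without LPS and 14.11, 14.48 and 14.16 with LPS. The arrays of each group lay within 1 log2 unit and the groups were far apart. The ELL2 cko change was 2.66 ± 0.25 (SE, limma adjusted p = 0.0043). A second junction (JUC0200003764.mm.1) rose by 2.73 ± 0.26 in ELL2 cko (limma adjusted p = 0.0044) and by 2.39 in WT. Without the 4 arrays these changes were 2.64 and 2.75. The brighter exon regions of Psmd14 rose by a median of 2.24 in ELL2 cko too.

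The Tlk2 junction measured 6.13, 6.20, 5.54 and 5.89 in WT without LPS and 9.96, 8.73, 9.08 and 8.94 with LPS. ELL2 cko arrays measured 4.90, 5.07, 4.9988 and 5.45 without LPS and 8.14, 7.38 and 7.23 with LPS. In ELL2 cko it sat lower than in WT in both states and still rose by 2.48 ± 0.28 (SE, limma adjusted p = 0.0081). Without the 4 arrays the rise was 2.92. None of the 38 exon regions of Tlk2 rose or fell by 1 in WT, and its gene value stayed between 9.32 and 9.95 in all arrays.

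Tcp1 had 2 of its 6 members called, with ELL2 cko changes of 2.67 ± 0.37 (limma adjusted p = 0.015) and 2.23, and all 6 ranged from 1.79 to 2.98. The first of these measured 9.62, 10.04, 9.53 and 10.16 in ELL2 cko without LPS and 11.63, 12.95 and 12.95 with LPS. In WT the same junction measured 9.52, 8.95, 9.05 and 9.12 without LPS and 10.57, 11.34, 11.77 and 11.63 with LPS. The WT change was 2.17. The higher values with LPS in ELL2 cko were those of replicates 2 and 3, with markers of other cells. Without the 4 arrays the change was 1.79, and that of the second called junction was 1.63. The junction of Pml, the scaffold of PML nuclear bodies, rose by 3.14 ± 0.56 in ELL2 cko (limma adjusted p = 0.034) and by 2.27 in WT. Without LPS this junction read 9.30 and 9.31 in the ELL2 cko arrays with markers of other cells and 10.73 and 11.14 in the others. Leaving out the 4 such arrays, its change was 1.51.

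Both Ighv14-2 junctions were called, at 3.96 ± 0.55 (limma adjusted p = 0.015) and 2.85 ± 0.50 (0.033), and without the 4 arrays they changed by 5.64 and 4.23. The first measured 6.14, 7.80, 7.28 and 8.40 in WT without LPS and 15.00, 14.56, 14.72 and 14.05 with LPS. For ELL2 cko the values were 8.14, 8.67, 7.45 and 6.84 without LPS and 12.79, 10.96 and 11.47 with LPS. All ELL2 cko arrays with LPS stood between the 2 WT groups.

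Gtpbp2 was named for its large WT change, so its values in the 2 genotypes are set side by side only as a description. Its junction measured 6.96, 7.73, 8.14 and 7.87 in WT without LPS and 13.52, 12.62, 12.72 and 12.49 with LPS. In ELL2 cko it measured 8.40, 7.14, 7.75 and 7.33 without LPS and 9.18, 9.46 and 9.80 with LPS. The ELL2 cko change was 1.83 ± 0.34 (SE, limma adjusted p = 0.040), and it missed the threshold when any of 6 single ELL2 cko arrays was left out. It was 1.645 without the 4 arrays. The zinc finger gene Zfp53 rose by 2.73 ± 0.37 in ELL2 cko (limma adjusted p = 0.014), from 6.98 to 7.93 across arrays without LPS to 9.52 to 10.53 with LPS, against 4.30 in WT. Without the 4 arrays its change was 3.09. Its gene value was itself called higher in ELL2 cko, by 0.98. Cytip had 1 of its 5 members called (1.83 ± 0.36, limma adjusted p = 0.048, and a change of 2.01 without the 4 arrays), and its members ranged from 1.28 to 2.16.

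**Figure D4:**
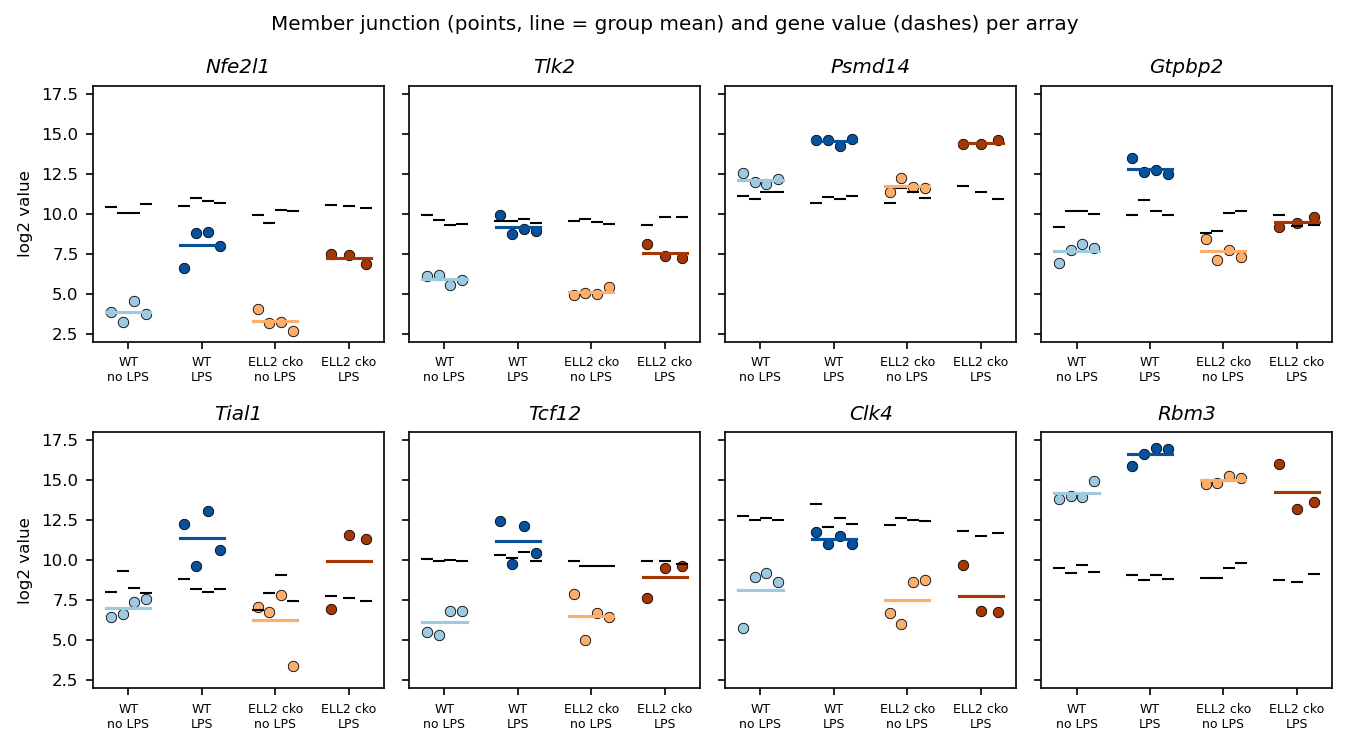
Log2 values of 8 member junctions in each array (points) with the group mean (coloured line) and the gene value of the same array (black dash); for Psmd14 the junction JUC0200003764.mm.1 is drawn. In Nfe2l1, Tlk2, Psmd14 and Gtpbp2 the ELL2 cko arrays with LPS lie clear of those without, in Tial1, Tcf12 and Clk4 they overlap, and in Rbm3 replicates 2 and 3 with LPS (13.24 and 13.64) lie below all arrays without LPS.

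The remaining called junctions lie in Gemin5, Mif4gd, Pdap1, Mtmr6, Usp16, Jmjd6 and Dicer1, named because they complete the count. Gemin5, which recognises small nuclear RNAs for the SMN complex, measured 6.48, 6.38, 7.27 and 7.60 in ELL2 cko without LPS and 9.22, 9.48 and 9.06 with LPS. That rise of 2.32 ± 0.34 (limma adjusted p = 0.018) compares with 3.67 in WT, and without the 4 arrays it was 1.79. Dicer1, which cuts microRNA precursors, rose by 1.69 in ELL2 cko (limma adjusted p = 0.022) and 2.05 in WT in 1 of its 31 junctions. Without the 4 arrays the change was 1.39.

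Large WT changes did not all come with a called rise in ELL2 cko. The Tcf12 junction measured 5.52, 5.31, 6.84 and 6.83 in WT without LPS and 12.48, 9.75, 12.16 and 10.47 with LPS. The ELL2 cko arrays read 7.90, 5.0023, 6.72 and 6.47 without LPS and 7.68, 9.51 and 9.66 with LPS. The highest array without LPS overlapped the lowest with LPS, and the change of 2.43 ± 0.72 missed the threshold (limma adjusted p = 0.15). Setd5 changed by 2.20 ± 0.66 (limma adjusted p = 0.15) and Sp110, an interferon-induced nuclear body protein, by 3.18 ± 0.92 (limma adjusted p = 0.14).

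The Tial1 junction varied widely within groups. It measured 6.45, 6.62, 7.38 and 7.61 in WT without LPS and 12.28, 9.67, 13.09 and 10.68 with LPS. Values in ELL2 cko were 7.06, 6.80, 7.84 and 3.41 without LPS and 6.95, 11.58 and 11.31 with LPS. Replicate 1 with LPS stayed at the level of the arrays without LPS, while replicates 2 and 3, with markers of other cells, were high, and the change of 3.67 ± 1.36 missed the threshold (limma adjusted p = 0.24). Without the 4 arrays it was 1.32.

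Gorasp2 and Arf4, with several members each, had no called rise in ELL2 cko. The Gorasp2 junction with the largest WT change measured 5.54, 5.04, 5.31 and 6.33 in WT without LPS and 11.87, 5.03, 10.55 and 9.66 with LPS, so that WT replicate 2 with LPS remained at the unstimulated level. In ELL2 cko it changed by 1.98 ± 0.74 (limma adjusted p = 0.24), and by -0.0007 without the 4 arrays. The leading Arf4 junction changed by 1.39 ± 0.57 (limma adjusted p = 0.29), and by -0.07 without them. All 5 Sdf4 members had small changes in ELL2 cko, from 0.28 to 0.92, against 2.05 to 3.05 in WT, and none was called. Abcf3 changed by 0.92 in ELL2 cko and 4.11 in WT, and Rnf157 by 1.36 and 4.00. In both, every ELL2 cko array with LPS lay above every array without it, but neither was called. Their WT changes were picked for being large, so no difference between genotypes is read from these values.

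At the low end stood junctions that did not rise in ELL2 cko. The Tpd52 junction measured 7.08, 6.20, 5.86 and 5.74 in WT without LPS and 11.63, 8.68, 9.14 and 9.07 with LPS. ELL2 cko arrays measured 7.88, 6.04, 5.69 and 7.58 without LPS and 6.19, 3.82 and 7.67 with LPS. The WT groups were apart, the ELL2 cko groups overlapped, and the change of -0.90 ± 0.92 was not called (limma adjusted p = 0.71).

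Rbm3, a cold-induced RNA-binding protein, measured 13.85, 14.05, 13.94 and 14.99 in WT without LPS and 15.90, 16.65, 17.00 and 16.99 with LPS. For ELL2 cko the values were 14.79, 14.87, 15.30 and 15.13 without LPS and 16.00, 13.24 and 13.64 with LPS. Replicate 1 with LPS was above all arrays without LPS and replicates 2 and 3, with markers of other cells, below them. The change was -0.73 ± 0.61 (limma adjusted p = 0.63), -1.58 without replicate 1 with LPS (limma adjusted p = 0.042) and 0.79 without the 4 arrays. The lowest junctions of Tsta3 (-0.39), Arpp19 (-0.37), Tmem62 (-0.34) and Brd2 (-0.33) also showed no called change.

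Members were present in some functional lists and absent from others. These lists were compiled with earlier results of these data known, and their counts stand beside 168 of the 1992 filtered genes that have a junction row (8.43%). Filtered genes are counted here only where they have one. Of 29 splicing factor genes 9 had a member (31.0%), namely Srsf11, Tra2b, Hnrnpa2b1, Clk3, Clk4, Tial1, Rbm25, Luc7l2 and Srrm1. Their 12 junctions had a median change of 2.79 in WT and 1.11 in ELL2 cko, where all 12 were above 0 and none was among the 23 called. Over all members the medians were 2.43 and 1.06.

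Srsf11, an SR-related splicing protein, measured 10.29, 12.17, 12.01 and 12.69 in WT without LPS and 15.39, 14.46, 15.52 and 14.78 with LPS. In ELL2 cko it measured 10.71, 11.02, 12.91 and 12.71 without LPS and 13.42, 12.75 and 12.58 with LPS. The WT groups were apart, and in ELL2 cko they overlapped, with a change of 1.08 ± 0.59 (limma adjusted p = 0.43). Clk4, a kinase that phosphorylates SR proteins, measured 5.75, 8.97, 9.22 and 8.63 in WT without LPS and 11.80, 11.03, 11.53 and 11.05 with LPS. The ELL2 cko arrays read 6.72, 6.04, 8.63 and 8.75 without LPS and 9.73, 6.81 and 6.76 with LPS, a change of 0.23 ± 0.93 (limma adjusted p = 0.94). The gene value of Clk4 was itself called lower in ELL2 cko, by -0.79.

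Of 14 filtered genes known for alternative isoforms in lymphocytes, 7 had a member: Clk4, Numb, Pml, Picalm, Tcf12, Tra2b and Ighm. Their 10 junctions all changed by more than 0 in ELL2 cko, with a median of 1.16. Picalm, a clathrin adaptor, changed by 3.00 in WT and by 1.37 ± 1.02 in ELL2 cko (limma adjusted p = 0.58). Its ELL2 cko arrays without LPS read 10.86 and 10.96 in the replicates with markers of other cells and 8.0006 and 8.39 in the others. The 1 member of Ighm, the mu heavy chain gene, measured 6.74, 7.93, 7.39 and 7.59 in WT without LPS and 10.71, 9.60, 11.18 and 9.93 with LPS. Values in ELL2 cko were 7.82, 6.75, 7.56 and 7.31 without LPS and 8.27, 7.92 and 7.74 with LPS, and the change of 0.62 ± 0.30 was not called (limma adjusted p = 0.37).

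Chromatin regulators had 5 of 43 genes with a member (Setd5, Whsc1l1, Kdm3a, Sin3b and Brd2) and 4 of their 5 junctions were above 0 in ELL2 cko. Membrane trafficking genes had 3 of 31 (Picalm, Exoc5 and Tbc1d9b), cytoskeleton and GTPase genes 1 of 18 (Myo5a), and DNA repair genes 1 of 16 (Xrcc1, the scaffold of single-strand break repair). The leading Xrcc1 junction measured 6.97, 9.04, 8.84 and 8.76 in WT without LPS and 12.21, 11.31, 12.93 and 12.69 with LPS. Its ELL2 cko arrays measured 7.97, 9.28, 8.55 and 8.92 without LPS and 10.33, 9.84 and 9.99 with LPS. Both pairs of groups were apart, while the ELL2 cko change of 1.37 ± 0.33 missed the threshold (limma adjusted p = 0.089).

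None of 27 transcription elongation and 3′ end processing genes held a member, and none of 17 B cell receptor and signalling genes. The unfolded protein response (3 filtered genes), ER secretion (2), cell cycle (2), mature B cell (3) and antibody-secreting cell (1) lists had too few genes inside the filter to say more than 0. Of 2 filtered B cell markers 1, Ighm, had a member. None of the T cell, NK cell, monocyte and macrophage, neutrophil, dendritic cell, or erythroid and platelet markers passed the gene filter, so no member lies in them.

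Junctions were also measured against their own gene by a splicing index, the row minus the gene value of the same array. In ELL2 cko the index of the members changed by a median of 1.07, from -0.72 to 3.91, against 0.03 over all rows. At an unadjusted p under 0.05 it was higher in 53.3% of members, against 6.44% of all rows and 8.03% of the comparison rows. By limma over 571265 rows 8 members in 5 genes were called higher (0.108% of all rows), 3 in Psmd14, 2 in Tcp1 and 1 each in Nfe2l1, Jmjd6 and Ndufs3, the last of which was called only by this measure. The Nfe2l1 index rose by 3.43 ± 0.41 (limma adjusted p = 0.024). No member was called in every fit without 1 array, and 0 were called when rows with an index of 0 in all arrays were kept in the fit.

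The rule set no limit on the change of the gene value in ELL2 cko. It was no more than 0.5 in 135 of the 168 (80.4%), a share close to that of the filtered genes without a member (78.4%) and of all genes (77.7%). It ran from -1.09 to 1.64, and in the 11 genes with at least 3 members the brighter exon regions changed by a median of 0.60. By limma over all 31366 genes 3 were called higher (4.64% of all genes and 2.12% of filtered genes without a member), namely Acaca (1.64), Polr1a (0.98) and Zfp53 (0.98). All called genes are named because they are few. Called lower were 2 (2.24% of all genes and 1.41% of filtered genes without a member), Malat1 (-1.09) and Clk4 (-0.79).

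Set beside WT as a description, the ELL2 cko mean with LPS was below the WT mean with LPS in 209 of the 227, with a median difference of -1.04. Without LPS the ELL2 cko mean was the higher one in 157, with a median difference of 0.34. All 3 ELL2 cko arrays with LPS lay below all 4 WT arrays with LPS in 96 members, against 7.7% of the comparison rows and 6.52% of all rows. Both differences involve the WT arrays that chose the members, in which high values with LPS and low values without were selected for, so nothing is read from them.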

How the data were processed

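Expression was measured on exon and junction arrays in 15 samples. The deposited log2 values carry the name SST RMA and came from the authors' run of the Affymetrix Expression Console, per the labels. A signal space transformation (SST) stretches differences, so folds are those of that scale. Versions and genome build are not given in the sources used here, so no junction position or sequence is given. Values were used as deposited, and all 15 columns were matched to labels. Precision rests on how many arrays a group has, since arrays have no read depth. A gene value is the median over its exon regions with 1 symbol. Of the 168 symbols 163 are current and 5 were matched through a synonym. The members and gene lists were chosen with earlier results of these data known.

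The LPS change in ELL2 cko was tested with limma 3.58.1 (lmFit, eBayes, two-sided, R 4.3.3) on the 7 ELL2 cko arrays, with Benjamini-Hochberg adjustment over all exon region and junction rows and calls at an adjusted p under 0.05. The splicing index (rows at 0 in every array left out) and gene values were fitted likewise. SE is that of the model, and groups are called apart where their arrays do not overlap. On simulated data with 200 changed rows of each size and no other change, the junction fit recovered 71.5% of log2 changes of 4 but 0% of changes of 1 or 2. In the real fit 15408 rows were called, which makes the adjusted threshold less strict, and called members began at 1.34. The simulated shares are therefore not those of the real fit, and an uncalled change is not evidence against one. Named genes are the 8 with most members, the 10 with the largest WT change, the 10 largest called rises, the 6 lowest ELL2 cko changes, up to 3 per list, the rows next to the threshold, and Ell2; predicted genes are counted only. The split into brighter and dimmer exon regions, the left-out WT arrays and the extra splicing index fits were chosen after seeing the data. Replicate numbers were checked for pairing: the same-numbered ELL2 cko arrays correlated at -0.25, 0.23 and -0.19. Replicates 2 and 3 with LPS correlated at 0.15 to 0.23 with replicates 1 and 2 without, all with markers of other cells. Replicate 1 with LPS correlated at 0.31 and 0.265 with replicates 3 and 4 without. The correlations thus followed those markers, and this check cannot tell whether the numbers pair samples.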

Additional observations from a re-analysis of the deposited data

Results flagged for a closer look

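Among the named junctions, 129 groups of 4 arrays were examined for an array whose gap to the nearest other array was large for the range of its group, and 6 had one, where chance gives about 1 in 20. In WT with LPS, replicate 1 was low for a Tcp1 junction (10.76) and high for Tpd52 (11.63), replicate 2 was low for Rnf157 (10.52), and replicate 3 was low for a Psmd14 junction (14.24). In WT without LPS, replicate 3 was low for a Tsta3 junction (6.14) and replicate 1 for an Xrcc1 junction (6.97). None of the 6 was an ELL2 cko array without LPS, and the 3 ELL2 cko arrays with LPS were too few to examine.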

How the results depend on the processing

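The count of 23 members called higher in ELL2 cko rose to 44 when all 15 arrays shared the spread, and 21 of the 23 were among these. Leaving out single arrays gave counts between 5 and 20. These were 5 and 6 without replicates 2 and 3 with LPS, and 12 and 13 without replicates 3 and 4 without LPS. With the replicate number as a block the count was 0, and whether the numbers pair samples could not be told. Dropping those 4 arrays that show other cell markers leaves 1 ELL2 cko array with LPS (spread shared by the other 11). Only the median change of the members, 0.90, is given for that fit. The 8 splicing index calls became 25 with 15 arrays, 4 with trend and robust eBayes, 0 with the replicate block, 0 to 4 without single arrays, 0 with zero rows kept and 3 on junction rows only. The 3 gene values called higher became 7 with 15 arrays, 1 with trend and robust eBayes, 0 with the replicate block and between 0 and 6 without single arrays. The 227 members became 110 when the gene change was held within 0.25, and between 209 and 324 without single WT arrays. With the mean of the exon regions as gene value 230 were chosen, but only 140 were shared, and with the median of their changes 232, with 149 shared. The cause of these shifts was not tested.

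Of 585 values of named junctions under alternatives, 519 kept direction and call, 48 lost the call, 2 gained one and 16 changed sign. Without the 4 arrays the sign changed for Gorasp2 (-0.0007), Arf4 (-0.0743), Rbm3 (0.7866), Arpp19 (0.0608), Exoc5 (-0.1411) and Coro2a (-0.5904). Without single arrays it changed for Tpd52 (range -1.7939 to 0.1336), Tmem62 (-0.673 to 0.0044), Brd2 (-0.9483 to 0.2269), Clk4 (-0.7536 to 0.7359), Myo5a (-0.4492 to 1.0513) and Exoc5 (-0.4177 to 1.3303). None of these was called in the fit reported. Of the 42 named junctions 12 were called in that fit, and only values of these 12 could lose a call. Just 4 of the 12 were called whichever single ELL2 cko array was left out.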
